A study of Homo sapiens with 44 samples.

Results

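The AKR1 genes encode aldo-keto reductases, and 8 of them were followed here: AKR1A1, AKR1B1, AKR1B10, AKR1B15, AKR1C1, AKR1C2, AKR1C3 and AKR1C4. They are 8 of the 58721 genes in the count tables, were taken by name, and all 8 passed the filter on low counts in every table. The family was chosen by the fold changes of cultured het1, het2 and homo cells against WT, where several of its genes differed greatly, so the cultured values are a description with no test. Results of the tumour libraries were also known when the list was drawn up, so the tumour tests give no independent support to the choice of genes.

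The libraries come from A549, a human lung adenocarcinoma cell line. The groups are the lines het1, het2 and homo, which the series describes as carrying a truncation of the TAZ2 domain of p300, and the parental line, labelled WT. p300 is a lysine acetyltransferase and transcriptional coactivator, and TAZ2 is one of the domains through which it binds transcription factors. Each line was sequenced as cultured cells (3 libraries per line) and as xenograft tumours collected at day 30 (4 per line). Tumours of het1 and WT were also treated for 4 weeks with SAHA (vorinostat, an inhibitor of histone deacetylases) or with the vehicle DMSO (4 libraries per group). This makes 44 libraries in 12 groups, with 61168373 to 99593214 counts each. Each genotype was present as a single line, apart from the pair het1 and het2, so a difference from WT cannot be told apart from any other difference of that line. Nothing in the labels ties replicates to separate animals or cultures, and p-values therefore measure only the spread between these libraries.

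Aldo-keto reductases use NADPH to reduce aldehydes and ketones to alcohols. AKR1A1, aldehyde reductase, acts on many small aldehydes, and AKR1B1, aldose reductase, turns glucose into sorbitol in the polyol pathway. AKR1B10 reduces retinaldehyde and reactive lipid aldehydes and is known for high levels in lung cancers of smokers. AKR1B15 is its close relative and reduces steroids and ketones. AKR1C1 inactivates progesterone, AKR1C2 inactivates dihydrotestosterone, AKR1C3 makes active androgens and prostaglandin F, and AKR1C4 is the liver form that acts in bile acid synthesis. Several of these genes are induced by the transcription factor NRF2 (NFE2L2), which its repressor KEAP1 marks for degradation. A549 cells are known to carry a defective KEAP1 and to have high NRF2 activity.

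Except for AKR1A1, the members lie in clusters of paralogs, and the sequences below are shown because near-identical copies limit how reads can be assigned. In GENCODE 29 on GRCh38, AKR1A1 lies at chr1:45550543-45570049 on the plus strand. AKR1B1 (chr7:134442350-134459284, minus strand), AKR1B10 (chr7:134527592-134541408, plus strand) and AKR1B15 (chr7:134549136-134579875, plus strand) are next to each other. The second cluster holds AKR1C1 (chr10:4963253-4983283, plus strand), AKR1C2 (chr10:4987400-5018031, minus strand), AKR1C3 (chr10:5035354-5107686, plus strand) and AKR1C4 (chr10:5195462-5218949, plus strand). The coding sequences of AKR1C1 and AKR1C2 were identical at 98.0% of aligned columns, with 19 mismatches. Gap columns count as differences in these percentages. AKR1C1 and AKR1C3 shared 91.9%, AKR1C3 and AKR1C4 88.2%, AKR1B10 and AKR1B15 85.9%, and AKR1B1 and AKR1B10 76.2%. AKR1B10 and AKR1B15 differed by 62 mismatches and 84 gap columns, and AKR1C3 and AKR1C4 by 115 mismatches with no gap. Of the 75-base stretches in the coding sequence of AKR1C2, 41.0% also occurred in another gene. The share was 35.7% for AKR1C1, 15.3% for AKR1C3, 12.9% for AKR1B10, 7.49% for AKR1B15 and 6.90% for AKR1C4, and 0% for AKR1B1 and AKR1A1. The read length and the handling of reads that match several genes are not stated in any source used here, so values of AKR1C1, AKR1C2 and AKR1C3 in particular may hold reads of one another.

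The likeness extends upstream of the genes. RefSeq promoter entries (GRCh38.p14) were found for 6 of the 8 members, in 8 entries since AKR1B1 and AKR1C3 have a pair each, and the 250 bases before an annotated start of the 4 AKR1C genes follow, written 5′ to 3′ on the strand of the gene. Capitals mark ATTGG, which is the CCAAT motif read on the opposite strand. The windows are AKR1C1 at chr10:4963165-4963414 (plus strand), AKR1C2 at chr10:5003858-5004107 (minus strand), AKR1C3 at chr10:5048531-5048780 (plus strand) and AKR1C4 at chr10:5196587-5196836 (plus strand).
AKR1C1: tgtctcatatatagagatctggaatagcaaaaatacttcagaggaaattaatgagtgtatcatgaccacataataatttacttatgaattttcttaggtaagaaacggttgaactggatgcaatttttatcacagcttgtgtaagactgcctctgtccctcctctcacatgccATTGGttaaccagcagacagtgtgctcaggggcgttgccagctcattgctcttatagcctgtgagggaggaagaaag
AKR1C2: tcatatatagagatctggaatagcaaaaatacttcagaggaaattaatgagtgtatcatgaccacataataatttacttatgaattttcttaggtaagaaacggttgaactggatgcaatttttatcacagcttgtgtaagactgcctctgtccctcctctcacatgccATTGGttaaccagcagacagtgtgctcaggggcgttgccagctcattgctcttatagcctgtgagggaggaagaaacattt
AKR1C3: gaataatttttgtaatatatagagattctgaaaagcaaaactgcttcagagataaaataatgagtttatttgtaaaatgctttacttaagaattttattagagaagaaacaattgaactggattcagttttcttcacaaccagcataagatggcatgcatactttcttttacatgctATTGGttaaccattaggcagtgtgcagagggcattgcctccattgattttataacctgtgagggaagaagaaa
AKR1C4: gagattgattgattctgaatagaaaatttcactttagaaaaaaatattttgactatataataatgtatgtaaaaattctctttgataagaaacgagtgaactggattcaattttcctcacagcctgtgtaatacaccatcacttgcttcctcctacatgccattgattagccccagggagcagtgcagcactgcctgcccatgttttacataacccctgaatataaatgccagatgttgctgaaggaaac
The windows of AKR1C1 and AKR1C2 matched at 96.5% of aligned columns, with 1 mismatch and 8 gap columns. AKR1C1 and AKR1C3 matched at 71.4%, AKR1C1 and AKR1C4 at 58.7%, and AKR1C3 and AKR1C4 at 58.4%. The ATTGG lay 77 to 73 bases before the start in AKR1C1 (-77 to -73), at -81 to -77 in AKR1C2 and at -73 to -69 in AKR1C3, and AKR1C4 had none in its window. The window of the other AKR1C3 start, not printed, had ATTGG at -86 to -82 and matched AKR1C1 at 69.2%. AKR1B1 had CCAAT at -98 to -94 of one start, and the window of its other start had none. This motif was picked after the sequences were seen, and 32.0% of the 35116 promoters searched hold it on one strand or the other. The antioxidant response element core TGACNNNGC is the class of site that NRF2 binds. Neither it nor the AP-1 site TGACTCA had a match on either strand in the 8 windows found. AKR1B10 and AKR1B15 had no promoter entry, so neither gene was searched. Among all promoters, 10.9% hold TGACNNNGC and 4.20% hold TGACTCA, and both patterns begin with TGAC. A lack of matches says only that these letters are not in these windows.

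The labelled cell type was checked against its markers, and cells other than A549 against theirs. CDKN2A, which A549 is known to lack, had 0 counts in all 44 libraries. The summed level of 6 epithelial markers had a median of 2641 CPM (counts per 1000000, TMM-scaled) in het1, 2073 in het2 and 842 in homo cultures, against 6679 CPM in WT cultures. In day 30 tumours the medians were 3743, 4960 and 4918 CPM in het1, het2 and homo, against 6988 CPM in WT. In each line 6 of 6 markers were called lower, beside 24.8%, 24.8% and 27.7% of all genes tested. The summed level of 8 fibroblast markers ran from 107 to 290 CPM in het1, 105 to 350 in het2 and 316 to 484 in homo tumours, against 217 to 362 CPM in WT tumours. The 8 myeloid markers summed to 13.4 to 16.6, 25.3 to 31.6 and 17.4 to 20.7 CPM in these lines, against 32.8 to 46.1 CPM in WT, and the 8 endothelial markers to 1.49 to 2.08, 6.51 to 8.93 and 5.34 to 6.23 CPM, against 2.54 to 3.54 CPM in WT. TYROBP, a defining myeloid marker, had 0 counts in the WT tumours, and the endothelial marker EMCN had 0 counts in the het1 tumours. The 8 hepatocyte markers summed to 28.9 to 44.9, 40.2 to 51.6 and 8.88 to 12.5 CPM in these lines, against 19.6 to 41.2 CPM in WT, and the 8 skeletal muscle markers to at most 42.0 CPM in day 30 tumours. No source used here states how host reads were treated. EP300, the gene of p300, was at 182 to 188 CPM in het1, 149 to 156 in het2 and 188 to 193 in homo cultures, against 111 to 119 CPM in WT, and gene counts do not check a truncation.

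In culture, AKR1B10 was the most abundant member in WT cells and nearly absent from homo cells. It was at 216, 212 and 209.7 CPM in the 3 het1 libraries, at 206, 203 and 199.7 CPM in het2, and at 6.23, 6.34 and 6.88 CPM in homo, against 6146, 6082 and 6290.3 CPM in WT. Both het lines lay at about the same level, homo lay far below them, and the libraries of no line overlapped with those of another. The log2 fold change (log2FC) against WT was -4.86 in het1, -4.93 in het2 and -9.90 in homo, and -5.00 in homo against the average of both het lines. AKR1B15 followed the same order at a lower level. It was at 16.4, 17.1 and 16.7 CPM in het1, at 11.9, 11.0 and 11.8 CPM in het2 and at 0.395, 0.526 and 0.374 CPM in homo, against 422, 416 and 430.1 CPM in WT. The 3 homo values rest on 29, 36 and 24 counts. Its log2FC against WT was -4.66, -5.19 and -9.93 in het1, het2 and homo.

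The AKR1C genes were lower in every line than in WT as well, with het2 above het1 for AKR1C1 and AKR1C2, unlike AKR1B10. AKR1C1 was at 83.3, 84.6 and 85.5 CPM in het1, at 260.1, 244 and 253 CPM in het2 and at 22.5, 21.2 and 21.7 CPM in homo, against 2200.1, 2103 and 2158 CPM in WT. The het2 cultures thus held about 3 times the level of the het1 cultures, with no overlap. AKR1C2 was at 159, 152 and 150.3 CPM in het1, at 213, 207 and 216 CPM in het2 and at 14.9, 15.4 and 15.6 CPM in homo, against 3142, 3074 and 3119 CPM in WT. AKR1C3 was at 137, 138 and 133 CPM in het1, at 137, 134 and 137 CPM in het2 and at 12.9, 12.3 and 12.3 CPM in homo, against 2568, 2505 and 2529 CPM in WT. The het1 and het2 values of AKR1C3 overlapped, and all of them lay between homo and WT. In log2FC against WT, AKR1C1 was at -4.67, -3.09 and -6.63 in het1, het2 and homo, AKR1C2 at -4.34, -3.87 and -7.67, and AKR1C3 at -4.22, -4.22 and -7.66. AKR1C4, the liver form, was low throughout, at 1.50, 1.54 and 1.71 CPM in het1, 1.49, 1.19 and 1.67 CPM in het2 and 0.218, 0.190 and 0.109 CPM in homo, against 28.2, 30.0 and 32.9 CPM in WT. The homo values of AKR1C4 are only 16, 13 and 7 counts, and its counts may hold reads of AKR1C3.

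The remaining members differed less between cultures. AKR1B1 was at 525, 512 and 522 CPM in het1, 830.5, 807 and 799 CPM in het2 and 365, 355 and 362 CPM in homo, against 1212, 1153 and 1119 CPM in WT. Each line had its own range, and the log2FC against WT was -1.16, -0.52 and -1.69. AKR1A1 was at 32.8, 31.3 and 32.4 CPM in het1, 42.5, 42.6 and 40.3 CPM in het2 and 38.9, 38.7 and 37.7 CPM in homo, against 50.8, 50.7 and 47.6 CPM in WT. Its log2FC was -0.63, -0.25 and -0.37, and homo lay between het1 and het2, so AKR1A1 was the one member that was not lowest in homo. Counting members at least 2-fold lower with no overlap between libraries, 7 of 8 were lower in het1 (7.65% of all genes tested), 6 of 8 in het2 (8.17%) and 7 of 8 in homo (9.95%), and 6 of 8 in homo against both het lines (3.49%). These contrasts chose the family, so nothing is read from the counts. The median log2FC of the members was -4.30, -4.05 and -7.55 in het1, het2 and homo against WT, and that of all genes was 0.03, 0.02 and 0.01. Per kilobase of exon, AKR1B10 led in WT cultures at 3539 CPM per kb, followed by AKR1C3 at 559, AKR1C2 at 482, AKR1B1 at 317, AKR1C1 at 246 and AKR1B15 at 127. In homo cultures AKR1B1 led at 98.5 CPM per kb, and AKR1B10 was at 3.72 CPM per kb, below AKR1A1 at 12.3 CPM per kb. The exon length joins the exons of all annotated transcripts, at 8765 bases for AKR1C1 and 1744 for AKR1B10. Their coding lengths are 972 and 951 bases, so the order per kilobase depends on the annotation.

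**Figure D1:**
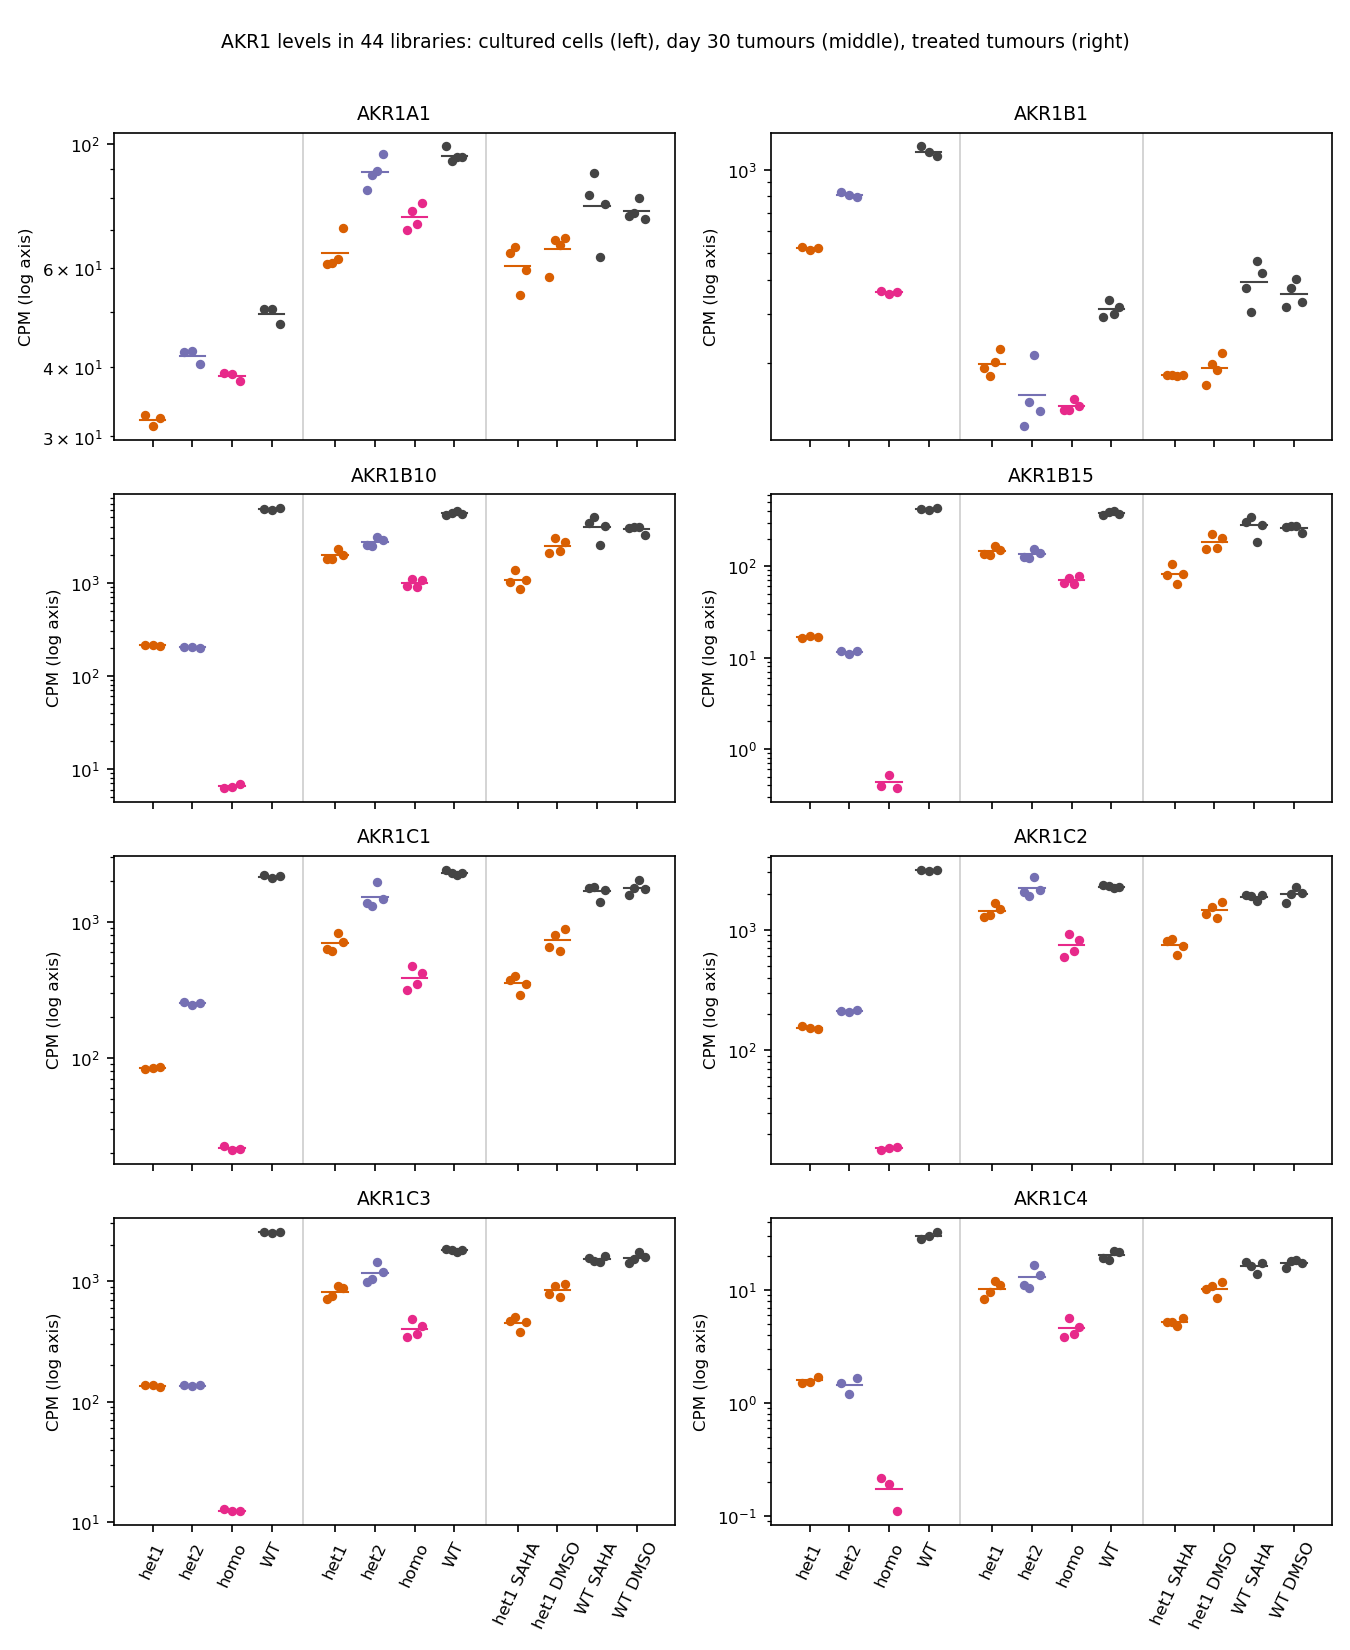
TMM-scaled CPM (log axis) of each AKR1 gene in every library, 1 panel per gene, with cultured cells, day 30 tumours and treated tumours side by side and a line at each group mean. In culture, AKR1B10 spans 6.48 CPM in homo to 6173 CPM in WT on average, while in day 30 tumours the same lines span 994 to 5524 CPM.

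In the day 30 tumours, which the culture contrasts did not use, the members' log2FC were again below 0 in each line. They were closer to 0 than in culture, apart from AKR1B1 in het2 (log2FC -1.03 in tumours and -0.52 in culture) and AKR1A1 in homo, which was alike in both. AKR1B10 was at 1790.3, 1784, 2277 and 1977 CPM in the 4 het1 tumours, 2544, 2476, 3063 and 2840.4 CPM in het2 and 914, 1089, 895 and 1077 CPM in homo, against 5297, 5575, 5815 and 5409 CPM in WT. The 4 lines did not overlap, and their order from high to low was WT, het2, het1 and homo. AKR1B10 fell by 1.50 (SE 0.0878, edgeR adjusted p = 1.25e-11), 1.02 (SE 0.0868, adjusted p = 5.36e-09) and 2.47 (SE 0.0907, adjusted p = 9.4e-15) on the log2 scale in het1, het2 and homo against WT. Tumours of all lines share the WT libraries as their control, so these values are not independent of each other. AKR1B15 was at 136, 133, 166 and 150.2 CPM in het1, 126, 123, 155 and 141 CPM in het2 and 65.1, 74.0, 64.4 and 77.3 CPM in homo, against 365, 387, 402 and 375 CPM in WT. Unlike AKR1B10, its het1 and het2 tumours overlapped. It fell by 1.39, 1.49 and 2.45 on the log2 scale, with edgeR adjusted p-values of 1.61e-11, 1.17e-11 and 5.31e-15.

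Among the AKR1C genes, het2 tumours stayed closest to WT. AKR1C1 was at 627, 608, 834 and 717 CPM in het1, 1387, 1299, 1951 and 1478 CPM in het2 and 316, 472, 351 and 421 CPM in homo, against 2407, 2304, 2207 and 2273 CPM in WT. No library of one line overlapped with those of another. AKR1C1 fell by 1.72, 0.59 and 2.56 on the log2 scale in het1, het2 and homo (edgeR adjusted p = 2.72e-08, 0.00194 and 2.27e-10). AKR1C2 was at 1284, 1328, 1661 and 1500.0 CPM in het1, 2044, 1923, 2762 and 2150.1 CPM in het2 and 592, 922, 668 and 818 CPM in homo, against 2345, 2296, 2203 and 2249 CPM in WT. The het2 tumours lay on both sides of the WT range, with log2FC -0.03 (SE 0.129, edgeR adjusted p = 0.851), while het1 and homo tumours lay below it. AKR1C2 fell by 0.66 in het1 and by 1.60 in homo on the log2 scale (edgeR adjusted p = 0.000403 and 1.78e-08). AKR1C3, the androgen and prostaglandin enzyme, was at 715, 745, 913 and 881 CPM in het1, 987, 1042, 1439.7 and 1187 CPM in het2 and 342, 483, 366 and 426 CPM in homo, against 1845, 1799, 1733 and 1821 CPM in WT. All 3 lines were below WT and homo was below both het lines, with no overlap. AKR1C3 fell by 1.15, 0.63 and 2.15 on the log2 scale (edgeR adjusted p = 3.26e-07, 0.000274 and 1.06e-10). AKR1C4 averaged 10.3 ± 1.61, 12.9 ± 2.82 and 4.57 ± 0.841 CPM in het1, het2 and homo, against 20.4 ± 1.74 CPM in WT (SD, n = 4 each), and fell by 1.00, 0.66 and 2.16 (edgeR adjusted p = 1.43e-05, 0.000899 and 1.1e-09).

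AKR1B1 was at 192, 179.7, 202 and 225 CPM in het1 tumours, 118, 145, 215 and 135 CPM in het2 and 136, 136, 149 and 139.9 CPM in homo, against 295, 338, 301 and 318 CPM in WT. Every WT tumour lay above every tumour of the other lines, and het2 overlapped with both het1 and homo. AKR1B1 fell by 0.65, 1.03 and 1.16 on the log2 scale (edgeR adjusted p = 0.000753, 1.07e-05 and 2.34e-06). AKR1A1 was at 60.9, 61.3, 62.2 and 70.6 CPM in het1, 82.8, 87.8, 89.4 and 96.0 CPM in het2 and 70.0, 75.8, 71.8 and 78.2 CPM in homo, against 98.8, 93.2, 94.5 and 94.5 CPM in WT. It fell by 0.58 in het1 and 0.36 in homo (edgeR adjusted p = 3.46e-08 and 1.54e-05), and in het2, which overlapped with WT, its log2FC was -0.10 (SE 0.0570, adjusted p = 0.165). In all, 8 of 8 members were called lower in het1 tumours (24.8% of all genes tested), 6 of 8 in het2 (24.8%) and 8 of 8 in homo (27.7%), and none was called higher. The members' median log2FC was -1.07, -0.65 and -2.16, and that of all genes was 0.02, -0.01 and 0.01.

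Homo tumours were also set against the average of both het lines. AKR1B10 averaged 994 ± 103 CPM in homo (SD, n = 4), against 2344 CPM as the mean of the het lines (log2FC -1.22, SE 0.0788, edgeR adjusted p = 2.06e-10). AKR1C1 was lower by 1.40, AKR1C2 by 1.25, AKR1C3 by 1.27, AKR1C4 by 1.33 and AKR1B15 by 1.01 on the log2 scale, with edgeR adjusted p-values of 4.64e-07 or less. For AKR1B1 the difference was small (log2FC -0.32, SE 0.118, edgeR adjusted p = 0.039), the libraries overlapped, and the call was kept in 7 of 12 fits that each left out 1 library. It was kept in only 3 of 7 other ways of processing, and with a covariate for host markers the edgeR adjusted p was 0.376. AKR1A1 was not called (log2FC -0.03, edgeR adjusted p = 0.700). This gives 7 of 8 members called lower (22.7% of all genes tested).

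In bulk tumours, fewer cells of a type and less RNA per cell cannot be told apart, and the summed host markers given above differed between lines. With a covariate for the fibroblast, endothelial and myeloid markers, the calls of AKR1B1 (log2FC -0.75, adjusted p = 0.0548), AKR1C1 (-0.43, adjusted p = 0.293), AKR1C3 (-0.33, adjusted p = 0.310) and AKR1C4 (-0.28, adjusted p = 0.495) in het2 tumours and of AKR1A1 in homo tumours (log2FC -0.10, adjusted p = 0.489) were lost in edgeR. All other day 30 calls of members against WT were kept under it with their direction, and the uncalled log2FC of AKR1C2 and AKR1A1 in het2 turned to 0.15 and 0.14. The fibroblast markers also differed between cultures, which hold no host cells, at 43.2 to 45.6 CPM in het1, 44.2 to 46.5 in het2 and 61.5 to 69.4 in homo, against 7.34 to 8.31 CPM in WT, and how much of the covariate comes from the lines themselves was not tested.

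**Figure D2:**
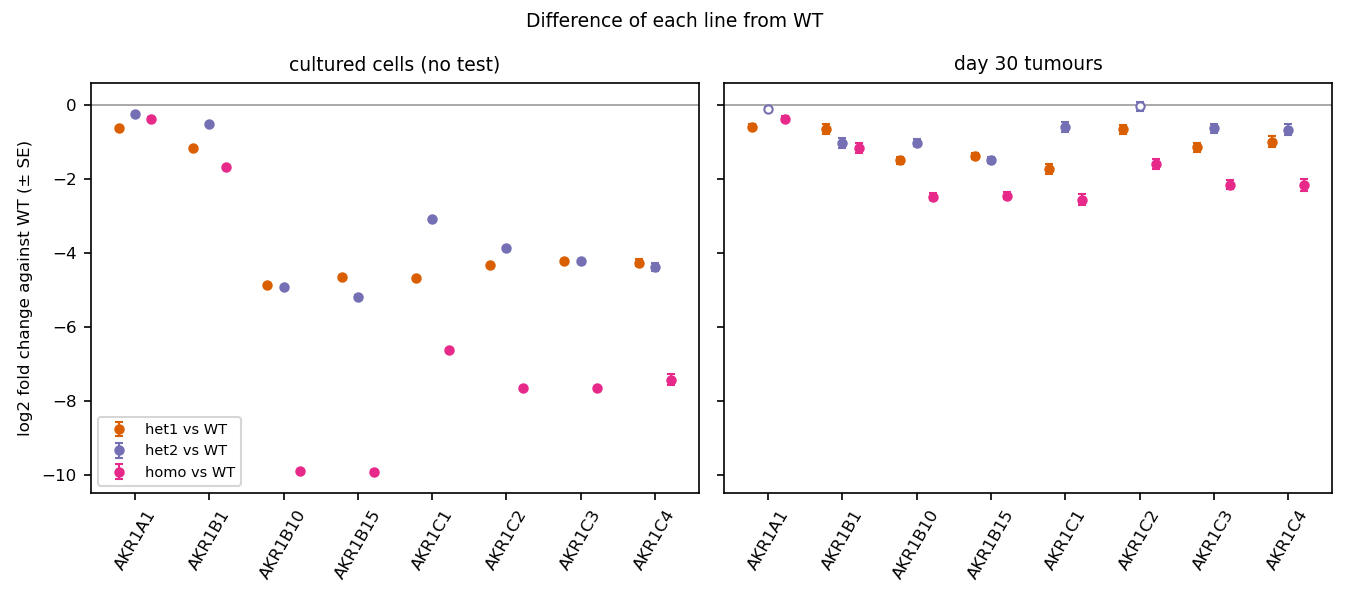
Log2 fold change against WT with its standard error for each AKR1 gene in het1, het2 and homo, in culture (a description, no test) and in day 30 tumours, where open symbols mark genes that were not called in edgeR. The homo values lie lowest for every gene except AKR1A1, and each tumour value of AKR1B10, AKR1B15 and the AKR1C genes lies closer to 0 than its culture value.

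Setting the levels in tumours beside those in culture shows which lines moved. The tables were scaled separately and no test was made across them. Mean AKR1B10 was 9.21 times as high in tumours as in culture in het1, 13.5 times in het2 and 153 times in homo, and 0.895 times in WT. For AKR1C1 the ratios of tumour to culture were 8.25, 6.06 and 17.9 in het1, het2 and homo, and 1.07 in WT. For AKR1C2 they were 9.38, 10.5 and 49.0, and 0.731 in WT. AKR1C3 had ratios of 5.99, 8.55 and 32.3 in the truncated lines and 0.71 in WT. In WT, therefore, AKR1B10 and AKR1C1 were at similar levels in both settings, and AKR1C2, AKR1C3 and AKR1C4 (ratio 0.673) were lower in tumours. In the other lines AKR1B10 and the AKR1C genes were several times higher in tumours, most of all in homo. AKR1B1 was lower in tumours in every line, with ratios of 0.384, 0.189 and 0.389 in het1, het2 and homo, and 0.269 in WT. AKR1A1 had ratios of 1.98, 2.13 and 1.92, and 1.92 in WT. The fibroblast markers summed to at most 69.4 CPM in any culture and to at least 105 CPM in any day 30 tumour, and their part in these ratios was not tested.

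The family's share of all counts summarises the same pattern. In culture the 8 genes held 0.119% of counts in het1, 0.167% in het2 and 0.0482% in homo, against 1.44% in WT. In day 30 tumours they held 0.536%, 0.800% and 0.284% in these lines, against 1.26% in WT. AKR1B10 alone made up 18.4%, 12.1% and 1.42% of the family's counts in het1, het2 and homo cultures, against 39.5% in WT cultures. In the tumours its share of the family was nearly alike in all lines, at 36.7%, 34.2% and 35.3%, against 43.5% in WT.

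**Figure D3:**
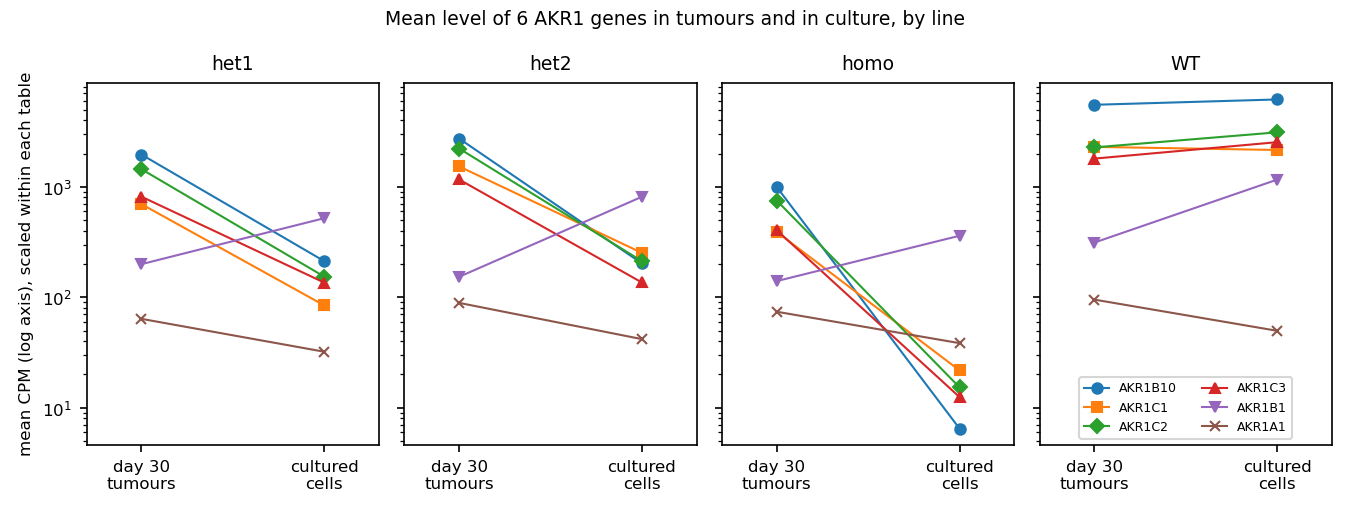
Mean CPM (log axis) of 6 AKR1 genes in day 30 tumours and in culture for het1, het2, homo and WT, with tables scaled separately and no test between them. The tumour means of AKR1B10 and the AKR1C genes lie furthest above the culture means in homo, with a ratio of 153 for AKR1B10, and AKR1B1 lies lower in tumours than in culture in every line.

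SAHA lowered 6 of the 8 genes in het1 tumours, and no change was detected in WT tumours. AKR1B10 was at 1019.7, 1368, 849 and 1068 CPM in het1 tumours given SAHA, against 2085, 2977, 2185 and 2732 CPM in het1 tumours given DMSO. The groups did not overlap, and AKR1B10 fell by 1.21 on the log2 scale (SE 0.192, edgeR adjusted p = 0.000851). In WT tumours it was at 4339, 5033, 2555 and 4048 CPM with SAHA, against 3826, 3943, 3908 and 3222 CPM with DMSO. One WT tumour given SAHA lay below all WT tumours given DMSO and the other 3 lay above them, and the log2FC was 0.10 (SE 0.189, edgeR adjusted p = 0.944), or -0.07 with a covariate for host markers. AKR1B15 in het1 was at 79.3, 104, 63.7 and 82.9 CPM with SAHA, against 154, 222, 159 and 203 CPM with DMSO, and fell by 1.16 (edgeR adjusted p = 0.00126).

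The AKR1C genes fell together in het1 tumours given SAHA. AKR1C1 was at 374, 403, 291 and 347 CPM with SAHA, against 654, 795, 607 and 881 CPM with DMSO. AKR1C2 was at 802, 835, 615 and 734 CPM with SAHA, against 1342, 1539, 1246 and 1710.1 CPM with DMSO. AKR1C3 was at 464, 499, 379.7 and 455 CPM with SAHA, against 776, 909.7, 739.7 and 949 CPM with DMSO. For each of these 3 genes, every het1 tumour given SAHA lay below every het1 tumour given DMSO. The falls on the log2 scale were 1.05 for AKR1C1 (SE 0.126, edgeR adjusted p = 5.51e-05), 0.97 for AKR1C2 (SE 0.109, adjusted p = 2.25e-05), 0.91 for AKR1C3 (SE 0.0893, adjusted p = 3.45e-06) and 0.98 for AKR1C4 (SE 0.100, adjusted p = 5.2e-06). In WT tumours AKR1C1 averaged 1676 ± 193 CPM with SAHA and 1774 ± 186 CPM with DMSO, AKR1C2 1876 ± 100.3 and 1988 ± 252 CPM, and AKR1C3 1515 ± 77.0 and 1566 ± 135 CPM (SD, n = 4 each). The SAHA and DMSO libraries of WT overlapped for each of these genes and AKR1C4, with log2FC from -0.08 to -0.05 for the 4 AKR1C genes.

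AKR1B1 and AKR1A1 did not pass the test in either line. AKR1B1 was at 182, 181, 179.6 and 181 CPM in het1 with SAHA, against 167, 198, 189.6 and 217 CPM with DMSO (log2FC -0.09, edgeR adjusted p = 0.618). AKR1A1 had a log2FC of -0.10 in het1 (edgeR adjusted p = 0.487). In total 6 of 8 members were called lower with SAHA in het1 (9.15% of all genes tested) and 0 of 8 in WT (0.0%). In WT, edgeR called 0 of 22586 genes between SAHA and DMSO, 1911 had an unadjusted p under 0.05, and DESeq2 called 104. The adjusted p-values of the 8 members in WT ran from 0.812 to 0.959 in edgeR.

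The difference between the SAHA effects in het1 and in WT was tested as an interaction. It was -1.31 for AKR1B10 (SE 0.269, edgeR adjusted p = 0.0154), -1.26 for AKR1B15 (adjusted p = 0.0195), -0.97 for AKR1C1 (adjusted p = 0.0059), -0.88 for AKR1C2 (adjusted p = 0.0038), -0.86 for AKR1C3 (adjusted p = 0.000901) and -0.89 for AKR1C4 (adjusted p = 0.00153). For AKR1B1 it was -0.23 (edgeR adjusted p = 0.442) and for AKR1A1 -0.13 (adjusted p = 0.602). The 6 members called lower compare with 2.71% of all genes tested. The fibroblast markers moved with the treatment in het1, summing to 166 to 244 CPM with SAHA, against 117 to 136 CPM with DMSO, and in WT the sums ran from 180 to 514 CPM with SAHA and from 245 to 356 CPM with DMSO. The endothelial markers summed to 1.83 to 2.40 CPM in het1 with SAHA, against 1.21 to 1.72 CPM with DMSO, and in WT to 2.84 to 5.44 CPM with SAHA and 3.09 to 3.88 CPM with DMSO. The hepatocyte markers summed to 14.4 to 18.0 CPM in het1 with SAHA, against 28.4 to 34.1 CPM with DMSO, and in WT to 12.5 to 18.5 CPM with SAHA and 6.97 to 31.3 CPM with DMSO. The part of these marker sets in the SAHA results was not tested beyond a covariate for fibroblast, endothelial and myeloid markers. With that covariate, the interaction of AKR1B10 was -0.94 (edgeR adjusted p = 0.101) and that of AKR1B15 was -0.92 (adjusted p = 0.115), so these calls were lost, and the 4 AKR1C calls were kept.

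Between the lines, all 8 members were called lower in het1 than in WT under DMSO (26.8% of all genes tested) and 8 of 8 under SAHA (29.0%). Under DMSO the myeloid markers summed to 13.3 to 17.8 CPM in het1, against 41.7 to 74.9 CPM in WT, and the epithelial markers to 3670 to 4374 CPM in het1, against 5115 to 6984 CPM in WT. The part of the myeloid markers in these differences was not tested beyond that covariate. The epithelial markers are not in the covariate, and their part was not tested. Under DMSO, AKR1C1 averaged 734 ± 127 CPM in het1 and 1774 ± 186 CPM in WT (log2FC -1.27, edgeR adjusted p = 2.53e-07), and AKR1B10 2495 ± 429 and 3725 ± 339 CPM (log2FC -0.58, adjusted p = 0.0188; SD, n = 4 each). The DMSO calls of AKR1B10, AKR1B15 and AKR1A1 depended on single libraries: AKR1B10 was called in 6 of 8 fits that left out 1 library, AKR1B15 in 3 of 8 and AKR1A1 in 4 of 8. Without het1 DMSO replicate 2 or replicate 4, AKR1B10 had an edgeR adjusted p of 0.0589 or 0.0585, and without replicate 2 AKR1B15 reached 0.104 and AKR1A1 0.116. Under SAHA the same difference was wider, at -1.89 for AKR1B10 (SE 0.196, edgeR adjusted p = 1.05e-06), -2.24 for AKR1C1 and -1.75 for AKR1C3. The share of the family in all counts was 0.304% in het1 with SAHA and 0.603% with DMSO, and in WT 0.965% with SAHA and 0.960% with DMSO.

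**Figure D4:**
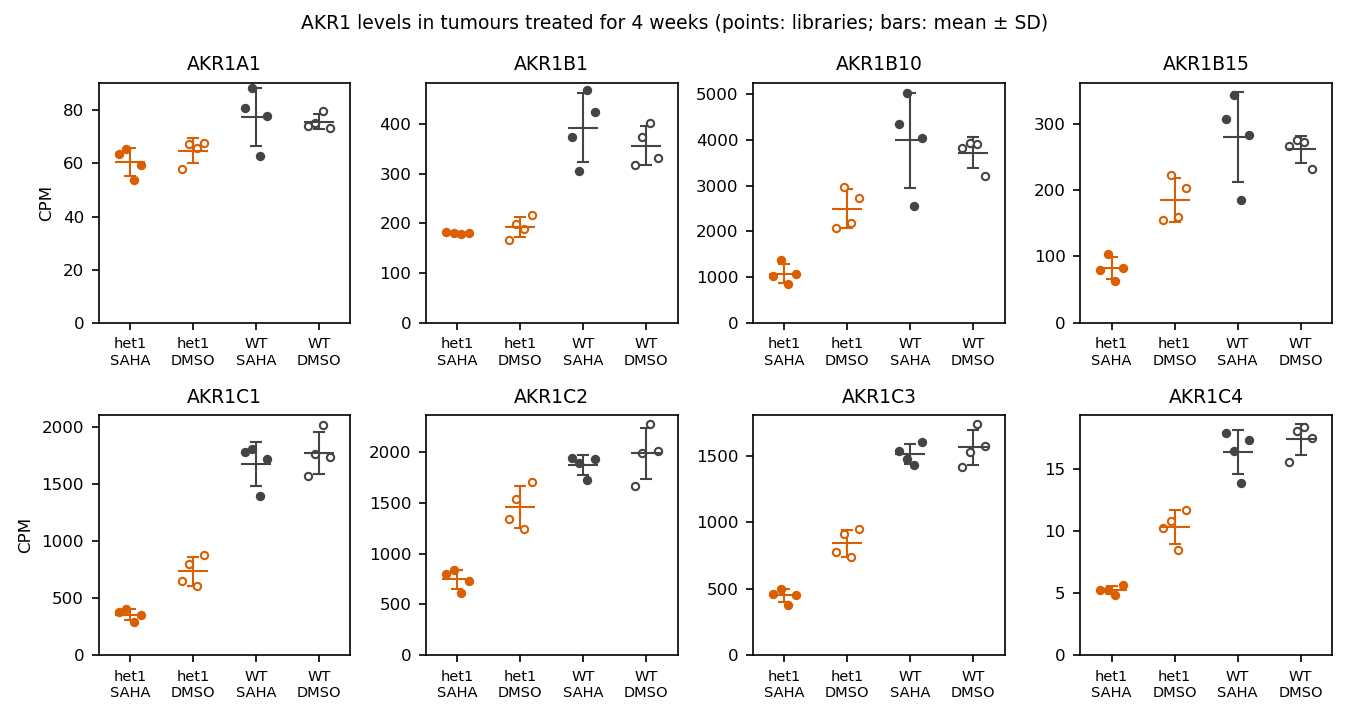
CPM of each AKR1 gene in treated tumours, with filled points for SAHA, open points for DMSO, and the mean and SD of the 4 libraries of each group. In het1 the SAHA libraries of AKR1B10, AKR1B15 and the AKR1C genes all lie below the DMSO libraries, and in WT the groups overlap for every gene.

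Because paralogs can share reads, the proportions of closely related pairs were followed across groups. AKR1B15 counts per 100 AKR1B10 counts kept to a narrow range although AKR1B10 itself spanned 6.48 to 6173 CPM: the ratio was 7.88 in het1, 5.72 in het2 and 6.69 in homo cultures, against 6.85 in WT cultures. In day 30 tumours it was 7.48, 4.98 and 7.07 in these lines, against 6.92 in WT. The het2 line had the lowest mean in both settings. Its cultures overlapped with those of homo, which ran from 5.44 to 8.29, and its tumours ran only from 4.94 to 5.05, below those of the other lines. A processed pseudogene on another chromosome, AKR1B10P1, had 1.21 to 2.00 counts per 100 AKR1B10 counts in all groups. It averaged 18.3 CPM in homo tumours, against 103 CPM in WT tumours, and no value here tells its own reads from those of AKR1B10.

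AKR1C1 and AKR1C2, which share the most sequence, did not keep a fixed proportion. There were 55.0 AKR1C1 counts per 100 AKR1C2 counts in het1, 119 in het2 and 142 in homo cultures, against 69.2 in WT cultures. In day 30 tumours the ratio was 48.2, 68.7 and 52.1 in het1, het2 and homo, against 101 in WT. In treated tumours it was 47.4 in het1 with SAHA and 50.2 with DMSO, against 89.2 in WT with SAHA and 89.5 with DMSO. The homo line thus had the highest proportion of AKR1C1 in culture and a proportion between those of het1 and het2 in tumours. AKR1C3 counts per 100 AKR1C2 counts were 88.4, 64.1 and 81.7 in het1, het2 and homo cultures, against 81.5 in WT, and 56.4, 52.5 and 54.2 in the tumours of these lines, against 79.2 in WT. AKR1C4 counts per 100 AKR1C3 counts kept to group means of 1.06 to 1.37, although AKR1C3 itself averaged 12.5 to 2534 CPM. The part of shared reads in these ratios was not tested, and no value here tells reads of AKR1C4 from those of AKR1C3.

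**Figure D5:**
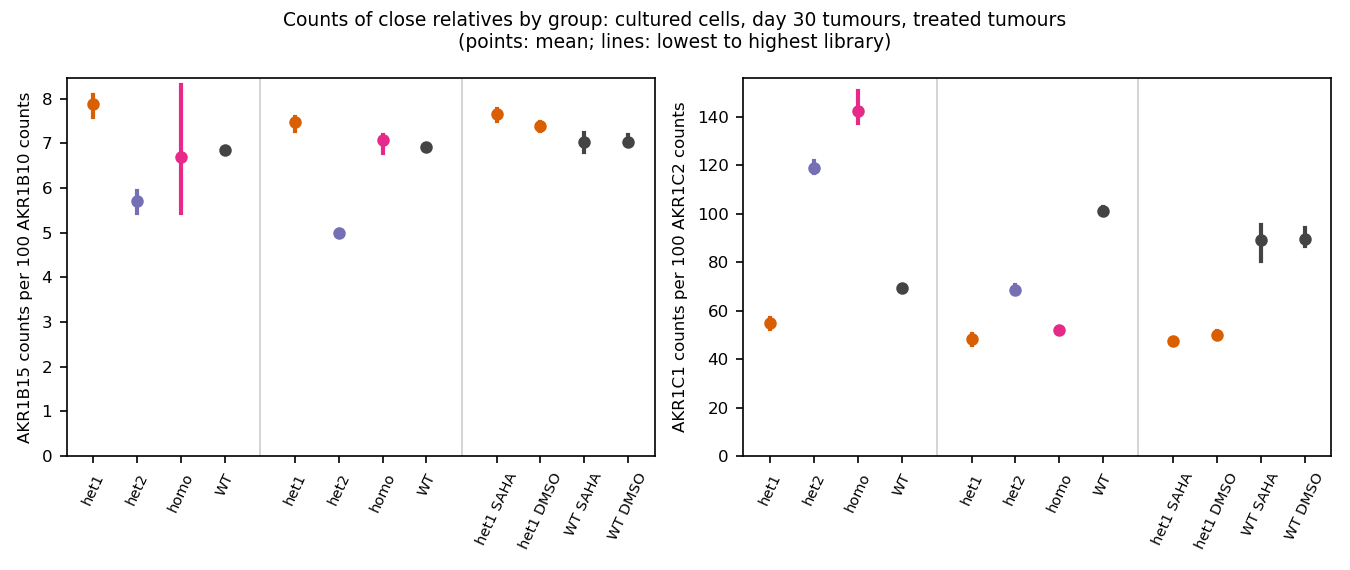
AKR1B15 counts per 100 AKR1B10 counts and AKR1C1 counts per 100 AKR1C2 counts in each group, with the mean as a point and the lowest and highest library as a bar. The first ratio stays between 4.98 and 7.88 on average, and the second runs from 47.4 to 142.

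The NRF2 pathway was examined through 30 of its known targets outside the family, all measured. In culture, 7 of 30 were at least 2-fold lower with no overlap in het1, 2 in het2 and 11 in homo, and none was higher by that rule. The shares of all genes tested that were lower by it are 7.65%, 8.17% and 9.95%. GPX2, a glutathione peroxidase, was at 69.4, 16.5 and 0.517 CPM in het1, het2 and homo, against 639 CPM in WT. ALDH3A1, an aldehyde dehydrogenase, was at 55.7 CPM in homo, against 1351 CPM in WT. In day 30 tumours, where 24.8% of all genes were called lower and 26.8% higher in het1, 24.8% and 24.4% in het2, and 27.7% and 27.1% in homo, the list did not move one way: 5 rose and 15 fell in het1, 14 rose and 5 fell in het2, and 14 rose and 12 fell in homo against WT, with medians of -0.17, 0.15 and -0.08. ALDH3A1 averaged 132 CPM in het1 and 68.2 CPM in homo tumours, against 573 CPM in WT (log2FC -2.12 and -3.07, edgeR adjusted p = 7.31e-14 and 7.33e-16). EPHX1, microsomal epoxide hydrolase, averaged 75.7, 250 and 117 CPM in het1, het2 and homo, against 461 CPM in WT, with log2FC -2.61, -0.88 and -1.98. GCLC, the catalytic subunit of glutathione synthesis, rose in het2 tumours, at 287 CPM against 179 CPM in WT (log2FC 0.68, edgeR adjusted p = 4.26e-08).

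With SAHA, 0 of the 30 targets rose and 19 fell in het1 tumours, where 9.15% of all genes were called lower, and 0 of 30 were called in WT tumours, as of all genes (0.0%). GCLC averaged 160.0 CPM with SAHA and 274 CPM with DMSO in het1 (log2FC -0.78, edgeR adjusted p = 9.35e-05). GCLM, the modifier subunit, averaged 74.5 and 127 CPM (log2FC -0.77, edgeR adjusted p = 3.47e-05), and ABCC2, an efflux transporter, 315 and 518 CPM (log2FC -0.72, adjusted p = 0.00011). In the interaction, where 2.71% of all genes were called lower, 8 of 30 were, among them GCLM (-0.82, edgeR adjusted p = 0.00186), GCLC (-0.79, adjusted p = 0.00506), ABCC2 (-0.74, adjusted p = 0.00539) and the cystine transporter SLC7A11 (-0.72, adjusted p = 0.0038). The median of the list was -0.33 with SAHA in het1, that of all genes 0.02.

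NFE2L2, which encodes NRF2, did not follow the family in culture, at 149, 156 and 193 CPM in het1, het2 and homo, against 155 CPM in WT. In day 30 tumours it averaged 113, 136 and 145 CPM, against 157 CPM in WT. It fell in het1 (log2FC -0.47, edgeR adjusted p = 2.08e-06) and het2 (-0.21, adjusted p = 0.00956), and in homo it had a log2FC of -0.12 (adjusted p = 0.118). With SAHA in het1 it averaged 107 CPM, against 119 CPM with DMSO (log2FC -0.15, edgeR adjusted p = 0.135). KEAP1 had log2FC of 0.03, -0.01 and -0.19 in culture and 0.02, 0.17 and 0.09 in day 30 tumours. In het1, het2 and homo tumours, 26.8%, 24.4% and 27.1% of all genes were called higher, and 24.8%, 24.8% and 27.7% lower. Of the 8 genes for NRF2 and its regulators, 3 rose and 1 fell in het1 tumours, 4 rose and 1 fell in het2, and 3 rose and 1 fell in homo. Their small MAF partner MAFG averaged 53.5 CPM with SAHA in het1 and 69.6 CPM with DMSO (log2FC -0.38, edgeR adjusted p = 0.00056).

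Of 8 aldo-keto reductases outside the members, 7 were measured, and in day 30 tumours 1 rose and 2 fell in het1, 2 rose and 4 fell in het2, and 2 rose and 4 fell in homo. The shares of all genes called higher in these lines were 26.8%, 24.4% and 27.1%, and those called lower 24.8%, 24.8% and 27.7%. AKR7A2, an aldehyde reductase, averaged 20.0 CPM in het1, against 29.9 CPM in WT (log2FC -0.58, edgeR adjusted p = 1.21e-06), but in culture its log2FC was 0.03, -0.03 and 0.13. AKR1E2 lies beside the AKR1C genes and averaged 9.78, 4.54 and 5.96 CPM in het1, het2 and homo tumours, against 9.95 CPM in WT. It fell in het2 and homo (log2FC -1.13 and -0.74), and its log2FC in het1 was -0.03. Among 10 of 11 carbonyl reductases of the short-chain dehydrogenase family, which act on like substrates, 2 rose and 4 fell in het1, 3 rose and 2 fell in het2, and 3 rose and 4 fell in homo. DHRS3, a retinaldehyde reductase that is also in the next list, averaged 19.1 CPM in homo tumours, against 71.3 CPM in WT (log2FC -1.90, edgeR adjusted p = 3.37e-07).

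Genes that share substrates with the members were called in both directions, as were all genes. Of all genes tested in day 30 tumours, 26.8%, 24.4% and 27.1% were called higher in het1, het2 and homo. The shares called lower were 24.8%, 24.8% and 27.7%. In retinaldehyde metabolism, where AKR1B10 acts, 5 of 15 measured genes rose and 7 fell in het1 tumours, 4 rose and 3 fell in het2, and 6 rose and 6 fell in homo. RDH10, which makes retinaldehyde, averaged 313, 368 and 284 CPM in het1, het2 and homo, against 95.8 CPM in WT (log2FC 1.71, 1.94 and 1.57, edgeR adjusted p = 1.65e-11, 6.59e-12 and 4.14e-11). ALDH1A2, which oxidises retinaldehyde, averaged 11.6 CPM in het1 and 10.9 CPM in homo, against 0.202 CPM in WT. In prostaglandin synthesis and breakdown, where AKR1C3 acts, 5 of 13 rose and 4 fell in het1, 6 rose and 2 fell in het2, and 3 rose and 4 fell in homo. PTGS2, the inducible cyclooxygenase, averaged 462, 536 and 345 CPM, against 84.5 CPM in WT (log2FC 2.45, 2.67 and 2.03). PTGR1, prostaglandin reductase, averaged 109 CPM in het1 and 158 CPM in homo, against 576 CPM in WT. HPGD, the enzyme that starts prostaglandin breakdown, shared the culture pattern of the family, at 12.0, 10.1 and 0.511 CPM in het1, het2 and homo cultures, against 128 CPM in WT. Its tumours averaged 166, 66.7 and 49.2 CPM, against 231 CPM in WT, and with SAHA it fell in het1 to 123 CPM, against 201 CPM with DMSO (log2FC -0.71, edgeR adjusted p = 0.00372; interaction -0.93, adjusted p = 0.0189).

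Among steroid hormone reductases and dehydrogenases, 2 of 14 measured genes rose and 8 fell in het1 tumours, 3 rose and 4 fell in het2, and 4 rose and 6 fell in homo. Beside these counts, 26.8%, 24.4% and 27.1% of all genes were called higher in these lines, and 24.8%, 24.8% and 27.7% lower. HSD17B6, an oxidative steroid dehydrogenase, averaged 1.18 CPM in het1 and 26.4 CPM in homo, against 18.5 CPM in WT (log2FC -3.96 and 0.52, edgeR adjusted p = 7.77e-11 and 0.0151). STS, steroid sulfatase, averaged 13.3 CPM in het1 and 17.2 CPM in homo, against 34.7 CPM in WT. In the polyol and fructose pathway, which AKR1B1 opens, 2 of 8 rose and 4 fell in het1, 3 rose and 5 fell in het2, and 2 rose and 5 fell in homo. KHK, the fructokinase, averaged 7.11, 3.79 and 6.65 CPM in het1, het2 and homo tumours, against 10.4 CPM in WT (log2FC -0.54, -1.45 and -0.64). The median log2FC of this list was -0.34, -0.54 and -0.64, and that of the steroid list was -0.32, 0.04 and 0.05.

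Neighbours within 250 kb of the clusters were compared to see how far the differences reach along the chromosome. Around the AKR1B genes, CALD1, which encodes caldesmon, had log2FC of 0.01, 0.13 and -0.06 in het1, het2 and homo cultures, and SLC35B4, a nucleotide sugar transporter, 0.24, -0.18 and -0.23. BPGM, bisphosphoglycerate mutase, had -0.49, -0.58 and -0.54 in culture and 0.30, -0.24 and 0.21 in day 30 tumours. Around the AKR1C genes, the pseudogenes AKR1C5P (log2FC -4.34, -3.29 and -6.63 in culture) and AKR1C7P (-4.32, -3.47 and -6.79) had changes about as large as those of AKR1C1 to AKR1C4. Their WT cultures averaged 6.40 and 2.32 CPM, and both may hold reads of the coding genes. NET1 was at 69.3, 46.7 and 54.1 CPM in het1, het2 and homo cultures, against 188 CPM in WT, with log2FC -1.44, -2.01 and -1.80. In tumours its log2FC was -0.25, -0.82 and -0.78, and with SAHA in het1 it was -0.03. TUBAL3, a tubulin gene, was low in het1 and homo tumours at 0.386 and 0.406 CPM, against 5.16 CPM in WT, and at 4.55 CPM in het2.

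Across the 12 group means, each centred within its table on the log2 scale, the members fell into a tight set and 2 outer genes. AKR1B10 correlated with AKR1C3, AKR1B15 and AKR1C2 at a Pearson r of 0.99 each and with AKR1C1 at 0.95, but with AKR1B1 at 0.80 and with AKR1A1 at 0.54. The points share libraries within each table, so these are descriptions with no p. The culture means, which chose the family, also spread most, and so weigh most in r. Mean AKR1B10 ran from 6.48 to 6173 CPM in culture and from 994 to 5524 CPM in day 30 tumours. Among 10808 genes with at least 5 CPM in all tables, those most like AKR1B10 were FMN1, HKDC1, RASSF6 and CAMK2N1 (r = 0.98 each). Those most like AKR1C3 were FMN1, RASSF6 and FOXA2 (0.98 each) and HKDC1 (0.97). For AKR1B1 the nearest were VPS35 and COL18A1 (0.97 each), and JAG1 and BBIP1 (0.96 each). HKDC1, a hexokinase, averaged 17.8, 9.92 and 0.845 CPM in het1, het2 and homo cultures, against 103 CPM in WT, and 31.6, 32.7 and 18.6 CPM in the tumours of these lines, against 89.1 CPM in WT. FMN1, RASSF6 and FOXA2 also averaged below WT in the tumours of each of these lines. FMN1 was nearly alike in them, at 35.2, 35.7 and 33.4 CPM, against 67.8 CPM in WT. CAMK2N1 averaged 186, 233 and 165 CPM in these tumours, against 225 CPM in WT, so likeness in tumours was looser.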

How the data were processed

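Polyadenylated RNA was sequenced from cultured cells (12 libraries), day 30 tumours (16) and treated tumours (16), and the authors deposited a table of raw counts per gene for each set. Per the submitters' processing notes, HISAT2, HTSeq and bcl2fastq were used with the hg38 build, and the labels' protocols name a stranded mRNA kit. The counting options, annotation release, read length and treatment of host reads are not stated in any source used here. Symbols came from GENCODE 29, in which 58676 of 58721 identifiers matched, all 8 members among them. Library totals were 61168373 to 93444327 counts (cells), 63243289 to 99593214 (day 30) and 61937591 to 82475298 (treated).

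Each table was fitted once over all its groups with edgeR 4.0.16 (quasi-likelihood test, TMM scaling, filterByExpr, robust dispersion) in R 4.3.3, with 21704 genes tested in cells, 22533 at day 30 and 22586 after treatment. P-values were adjusted by Benjamini-Hochberg over all genes tested, and a gene was called at an adjusted p under 0.05. Cultured members were described by fold change, as at least 2-fold lower with no overlap between libraries. CPM are TMM-scaled. The members and lists were chosen with earlier results of these data known. List genes named are up to 4 per comparison with the largest change and a mean of at least 5 CPM, and a gene of the polyol list is not reported here. Neighbours lie within 250 kb and average at least 1 CPM, and likeness is Pearson's r over group means of log2(CPM + 0.5). Besides the lists described in the report, the epithelial, fibroblast, endothelial, myeloid, hepatocyte and skeletal muscle markers were summed per library. EP300 and its paralog CREBBP were read once, and CREBBP averaged 89.6, 105 and 126 CPM in het1, het2 and homo cultures, against 101 CPM in WT.

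Of 60 same-group library pairs, 0 were identical. Libraries with the same replicate number did not deviate together: the correlation of their residuals had a median of -0.01 for cells, -0.01 at day 30 and -0.02 for treated tumours. Alternatives were DESeq2 1.42.0, other scaling, no or a stricter filter, fits on only the groups compared, a replicate block, a host marker covariate and leaving out each library. The fitting step was tested on simulated counts. Coding and promoter sequences were aligned with Biopython 1.88 in Python 3.11.15.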

Additional observations from a re-analysis of the deposited data

Results flagged for a closer look

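In all 6 genes of the AKR1B10 and AKR1C loci that changed with SAHA in het1 tumours, the SAHA effect differed from that in WT tumours by a test of the difference itself. On the log2 scale, het1 minus WT, it was -1.31 for AKR1B10 (edgeR adjusted p = 0.0154), -1.26 for AKR1B15 (0.0195), -0.97 for AKR1C1 (0.0059), -0.88 for AKR1C2 (0.0038), -0.86 for AKR1C3 (0.000901) and -0.89 for AKR1C4 (0.00153). In the 4 het1 libraries given SAHA, these genes lay below all 4 het1 libraries given DMSO, while in WT the groups overlapped. With a host marker covariate the calls of AKR1B10 (-0.94, edgeR adjusted p = 0.101) and AKR1B15 (-0.92, 0.115) were lost.

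Single libraries stood apart from the rest of their group of 4 for 2 values. AKR1A1 was at 70.6 CPM in het1 day 30 tumour replicate 4, and the nearest of the other 3 was at 62.2 CPM, a gap of 0.862 of the range of the group. AKR1B10 was at 3222 CPM in WT DMSO tumour replicate 8, with the nearest at 3826 CPM, a gap of 0.838 of the range. Both gaps exceed the critical value of Dixon's test for 4 samples. With 64 groups checked, chance alone flags about 1 in 20.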

How the results depend on the processing

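Over the 72 tests of members in tumours, DESeq2, RLE size factors and a mean of at least 1 CPM changed no call and no direction, and no called value changed direction under any alternative. Uncalled values that changed sign did so as follows. With the host marker covariate, het2 against WT turned to 0.14 for AKR1A1 and 0.15 for AKR1C2, and AKR1A1 to 0.076 in homo against the het lines, 0.021 for SAHA in het1 and 0.078 in the interaction. For SAHA in WT, the covariate gave -0.057 for AKR1A1, -0.074 for AKR1B10 and -0.060 for AKR1B15. With the replicate block, SAHA in WT gave 0.043 for AKR1C1, 0.034 for AKR1C2 and 0.051 for AKR1C3, and SAHA in het1 0.013 for AKR1A1. Single omissions gave -0.16 to 0.047 for AKR1C2 in het2, and for SAHA in WT -0.040 to 0.12 for AKR1A1, -0.033 to 0.26 for AKR1B10, -0.020 to 0.25 for AKR1B15 and -0.092 to 0.0075 for AKR1C3. Single omissions lost 16 member calls. Without a filter 2 were lost, AKR1B1 in homo against the het lines (edgeR adjusted p = 0.0986) and AKR1B15 in het1 against WT under DMSO (0.0707). Fits on only the groups compared lost 1, AKR1B1 in homo against the het lines (edgeR adjusted p = 0.0694). A host marker covariate lost 8 calls, leaving 2 members called in het2 (6 without it) and 7163 genes in het2 and 7043 in homo, against 11084 and 12348. The labels share replicate numbers between groups, but the numbers did not pair the libraries. A replicate block lost 12 member calls, leaving 5 of 8 in het1 against WT under DMSO and 0 of 6 in the interaction, with 812 genes for SAHA in het1 (3801 without it) and 19 in the interaction (1066 without it). Under the block, SAHA in het1 was no longer called for AKR1B10 (-0.96, edgeR adjusted p = 0.147) and AKR1B15 (-0.94, 0.170), and AKR1C3 had an edgeR adjusted p of 0.0562 in the interaction. For SAHA in WT, where edgeR called 0 genes, no filter gave 36, the host covariate 47 and DESeq2 104, and single omissions 0 to 170, with 170 without WT DMSO replicate 3. In the interaction, the host covariate gave 688 genes and DESeq2 1695, and single omissions 542 to 1677, with 542 without het1 SAHA replicate 1 and 1677 without WT SAHA replicate 6. Single omissions left 5 to 8 members called in het1 against WT under DMSO, with 5 without het1 DMSO replicate 2 or 4. The causes of these changes were not tested. Low counts limit AKR1B15 and AKR1C4 in homo cultures, and homo and WT are each a single line.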
